A study of Mus musculus with 4 samples.

Results

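The genes described here are 9 of the 32286 features of a single-cell RNA data set of mouse tumours: the neuropeptide genes Gal, Pnoc, Npy, Sst and Adcyap1 and the receptor genes Galr1, Oprl1, Sstr2 and Adcyap1r1. They were picked by symbol, and each of the 9 symbols was found. The choice was made with results of these data in view, since Galr1 already stood out by its difference between genotypes, so differences between genotypes are given as a description. The tissue is labelled MB. The 4 libraries are 1 each of males and females of 2 genotypes. SG is fSMO-M2;hGFAPcre, in which a floxed, constitutively active Smoothened (SMO-M2) is switched on by a Cre recombinase under the human GFAP promoter. YSG is fYap1;fSMO-M2;hGFAPcre, with floxed Yap1 added, and the series design calls these animals rescued and sampled at end point. Every library therefore carries fSMO-M2 and hGFAPcre, and no library comes from tissue without the tumour-driving allele. Cre driven by hGFAP acts in neural progenitors broadly, not in granule neuron precursors alone. Ages, the number of animals pooled in a library and the zygosity of the floxed alleles were not given in the sources used here. With 1 library per group no difference was tested, and genotype cannot be told apart from animal, age or capture.

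Neuropeptides are cut from larger precursor proteins, stored in dense-core vesicles and released to act on G protein-coupled receptors. Galanin (Gal) signals through GALR1, a receptor that inhibits adenylyl cyclase. Nociceptin, cut from the Pnoc precursor, signals through the opioid-like receptor encoded by Oprl1, and somatostatin (Sst) signals through receptors that include SSTR2; both receptors also inhibit adenylyl cyclase. PACAP, encoded by Adcyap1, instead raises cyclic AMP through the PAC1 receptor encoded by Adcyap1r1, and it is known to oppose hedgehog-driven proliferation of cerebellar granule neuron precursors, in which protein kinase A restrains Gli activation. Granule neuron precursors leave the cell cycle at the inner edge of the external granule layer, where newly postmitotic cells make contactin 2 (Cntn2).

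After filtering there were 8419, 7882, 7656 and 7193 barcodes in the SG and YSG male and the SG and YSG female libraries, in that order, with 58308739 to 86810253 unique molecular identifiers (UMIs) per library and medians of 5872.5 to 7419.5 UMIs per barcode. Pairs of libraries shared 9 to 21 barcode sequences. Yap1 had 266 and 374 UMIs in the SG male and SG female libraries and 10 and 3 in the YSG ones, although a 3' tag need not lie in the deleted exons. Barcodes were sorted by markers other than the 9 genes. The cycling gate (5 or more UMIs over 12 mitotic genes) held 28.5% to 36.8% of barcodes. The early postmitotic gate (3 or more UMIs over Cntn2, Robo3, Nhlh1 and Nhlh2) held 22.7% in SG males, 28.2% in YSG males, 21.4% in SG females and 36.5% in YSG females. The maturing gate held 200, 308, 252 and 447 barcodes. Its name is not borne out by its full marker list, since the granule neuron genes Gabra6, Cbln3 and Grin2c lay between 0 and 4.66 CPM in it; the gate rests on Rbfox3, Etv1, Grin2b, Unc5c and Kcna1. The rest formed an ungated set and small classes with markers of other cells. Robo3 in the early gate was at 47.1, 2.89, 52.5 and 29.0 CPM in the library order above. The early markers together were at 1184, 1043, 1180 and 1117 CPM there, so the gate leans on Cntn2 and the Nhlh genes in each library. Depth moved with the gates: the median was 9061 to 11268.5 UMIs in the cycling gate and 5081 to 5927 in the early gate. Barcodes with 3 or more astroglia markers numbered 631, 329, 732 and 122. They were deep and carried cycling markers at 2098 to 3002 CPM, and they were kept out of the gates. The levels below are in CPM, the UMIs of a gene per 1000000 UMIs of the same barcodes, and intervals are 95% counting intervals that leave out any variation between animals.

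Galr1, the galanin receptor gene, was higher in the YSG library of each sex and in every gate. Over all barcodes it was at 3.57 CPM (3.15 to 4.03) in SG males, 17.4 (16.3 to 18.4) in YSG males, 3.32 (2.95 to 3.72) in SG females and 23.6 (22.4 to 24.9) in YSG females. The SG libraries lay close together, and both YSG libraries lay well above them. Set against SG, YSG males were 4.87-fold higher (4.25 to 5.59), on 1057 UMIs against 261, and YSG females 7.13-fold higher (6.27 to 8.12), on 1379 against 288. The UMIs were spread over many barcodes: a UMI was found in 205, 743, 201 and 913 barcodes, no barcode had more than 8, and the 10 richest barcodes held 4.26% to 13.2% of the UMIs. Galr1 spans chr18:82392380-82406777 of mm10 (minus strand).

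Within gates, the Galr1 difference between genotypes was wider in cycling than in early postmitotic barcodes. In the cycling gate it was at 1.55 CPM in SG males and 10.5 in YSG males, a fold of 6.80 (5.07 to 9.29), and at 1.46 and 12.1 CPM in females, a fold of 8.31 (6.26 to 11.2). In the early postmitotic gate, where every library had its highest level with the gates used here, it was at 12 and 38.3 CPM in males and at 13.4 and 48.0 CPM in females. Those are folds of 3.18 (2.64 to 3.85) and 3.57 (3.02 to 4.26). Barcodes of the maturing gate gave 3.07 (1.52 to 6.84) and 4.54 (2.67 to 8.22), and ungated barcodes, where the SG libraries had 14 and 9 UMIs, gave 8.68 (4.93 to 16.5) and 9.76 (4.87 to 22.2). With gates per 10000 UMIs the ungated folds were 15.3 and 5.46, and with small marker sets the female maturing fold was 2.27. The male and female folds of each gate had overlapping intervals. Barcodes with oligodendrocyte, leukocyte or vascular markers had a Galr1 UMI in 0 of 48, 3 of 45, 0 of 43 and 1 of 56 cases, with median depths of 3884.5 to 7440 UMIs, while early gate barcodes had one in 5.85%, 16.8%, 6.52% and 21.8%. These other classes are few and carried cycling markers at 193 to 3249 CPM, so they are no clean measure of RNA from outside the cell. After each barcode was thinned to 2000 UMIs, the early gate shares were 2.41%, 7.49%, 2.63% and 9.01%.

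**Figure D1:**
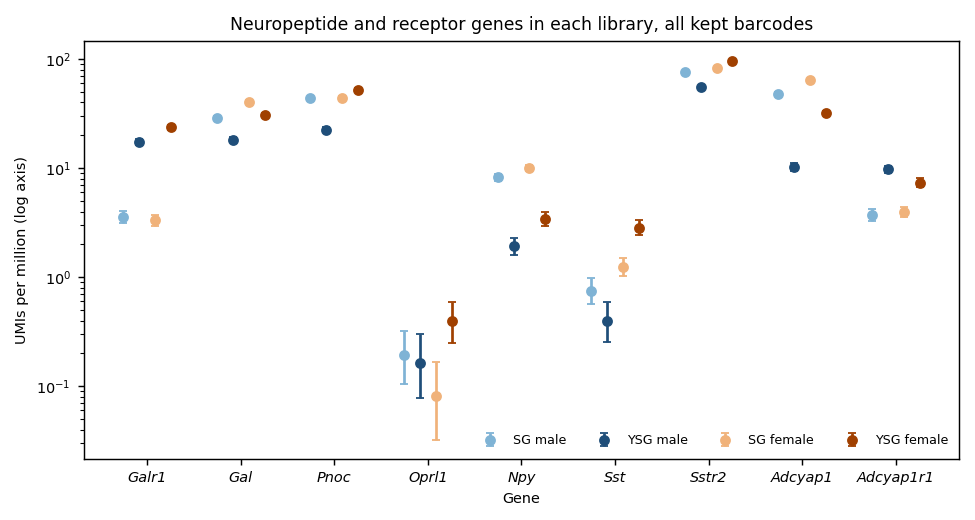
CPM of the 9 genes (log axis) in the 4 libraries over all kept barcodes; points are library values and bars 95% Poisson intervals, which cover counting error only. Galr1 lies above in both YSG libraries, and Npy and Adcyap1 lie below in both, while Pnoc, Sst and Sstr2 lie on opposite sides in males and females.

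Of the 9 genes, 7 reached 5 CPM in at least 1 library of each pair; Oprl1 and Sst did not. Galr1 was the 1 gene that was 2-fold or more higher in YSG in both sexes, in a background of 1.41% of 10090 genes tested, and Npy and Adcyap1 were 2-fold or more lower in both, in a background of 1.75%. In males alone 2 were higher (Galr1 and Adcyap1r1; background 2.07%) and 2 lower (background 2.72%). In females alone 1 was higher (background 3.7%) and 2 lower (background 2.83%). Within the cycling gate 2 were higher in both sexes (Galr1 and Adcyap1r1; background 1.43%) and 2 lower (Npy and Adcyap1; background 1.76%). Within the early gate, where 6 of the 9 reached 5 CPM, 2 were higher (Galr1 and Adcyap1r1; background 0.857%) and 1 lower (Adcyap1; background 0.746%). Because the genotype difference took part in the choice of the genes, nothing is read from these counts.

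Gal, the gene of the GALR1 ligand galanin, went the other way from its receptor over whole libraries. It was at 28.9 CPM (27.6 to 30.1) in SG males, 18.2 (17.2 to 19.4) in YSG males, 40.5 (39.2 to 41.9) in SG females and 30.7 (29.3 to 32.2) in YSG females, and was 1.58-fold (1.47 to 1.70) and 1.32-fold (1.25 to 1.40) lower in YSG. Both library differences were under 2-fold. Among cycling barcodes the male libraries stood at 23.7 (SG) and 11.4 CPM (YSG), which passed 2-fold. A pseudocount of 1 CPM put that difference just under the mark. The female cycling levels were 34.4 (SG) and 20.9 CPM (YSG). Unlike Galr1, Gal was higher in ungated than in early gate barcodes of each library. The ungated barcodes held it at 51.5, 28.7, 79.8 and 60.8 CPM, against 17.4, 23.7, 31.4 and 28.6 CPM in the early gate. Early levels lay below cycling levels in both SG libraries and above them in both YSG libraries. The YSG male step passed 2-fold, or 1.99 with that pseudocount. Maturing barcodes held 43.0, 28.5, 60.8 and 35.6 CPM. The early gate was not lower in YSG males, where the fold was 1.37 (1.15 to 1.63), and it was near even in females at 0.911 (0.796 to 1.04), or 1.13 without doublet candidates. Gal was unevenly spread over barcodes, with up to 72 UMIs in a single barcode of the SG female library. Gal spans chr19:3409915-3414544 (minus strand).

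Pnoc, the nociceptin precursor gene, was found mostly in the early postmitotic gate. That gate held 61.8% of its UMIs in SG males, 60.2% in YSG males, 57.3% in SG females and 71.4% in YSG females, against 16.5%, 22.7%, 13.8% and 31.1% of the UMIs of all genes. The early gate level was 164 CPM (156 to 171) in SG males, 59.8 (55.8 to 64.0) in YSG males, 182 (175 to 190) in SG females and 119 (114 to 124) in YSG females. Both YSG libraries lay below both SG libraries there. Within this gate Pnoc was lower in YSG by 2.74-fold (2.52 to 2.97) among males and by 1.53-fold (1.44 to 1.63) among females.

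Over whole libraries the Pnoc difference was not the same in the 2 sexes. The library levels were 43.6 CPM in SG males, 22.6 in YSG males, 44.0 in SG females and 51.9 in YSG females, so that the male fold was 0.517 (0.485 to 0.551) and the female fold 1.18 (1.12 to 1.24). The female library value was thus slightly higher in YSG while the early gate value was lower, and the early gate took in 36.5% of YSG female barcodes against 21.4% in SG females. In the remaining gates the female folds were 0.879 (0.770 to 1.0) in cycling, 1.46 (1.18 to 1.80) in maturing and 2.33 (1.76 to 3.09) in ungated barcodes. The cycling value was 0.649 without doublet candidates, 0.762 with gates per 10000 UMIs and 0.688 with astroglia-marker barcodes put in the gates. Under the other alternatives it stayed inside its interval. The maturing value rests on which markers define the gate: with Grin2b, Kcna1 and Unc5c alone it was 0.377. Male folds were below 1 in each gate, from 0.354 (0.263 to 0.473) in maturing to 0.742 (0.549 to 0.997) in ungated barcodes. The ungated values also moved with the gates: the male fold was 1.14 with gates per 10000 UMIs and 1.01 with small marker sets, and the female fold 1.67 with the latter. A Pnoc UMI was found in 27%, 16.7%, 26.1% and 22.4% of early gate barcodes, and in 1 of 48, 3 of 45, 3 of 43 and 2 of 56 barcodes of the oligodendrocyte, leukocyte and vascular classes. Pnoc spans chr14:65400673-65425472 (minus strand).

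Oprl1, which encodes the nociceptin receptor, was close to the limit of detection. There were 14 UMIs in SG males, 10 in YSG males, 7 in SG females and 23 in YSG females, never more than 1 in a barcode, or 0.191, 0.164, 0.0806 and 0.394 CPM. The male fold was 0.858 (0.341 to 2.08) and the female fold 4.89 (2.03 to 13.5). The other opioid genes were scarce too. Penk was at 0.214 to 1.62 CPM and Pomc at 1.13 to 3.28 CPM, Oprm1 was at 0 UMIs in each library, and Oprd1 and Oprk1 reached 0.0657 and 0.0547 CPM at most. Oprl1 spans chr2:181715016-181720985 (plus strand).

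Npy, which encodes neuropeptide Y, was lower in YSG and was found mainly outside the early gate. It was at 8.24 CPM (7.60 to 8.93) in SG males, 1.92 (1.59 to 2.30) in YSG males, 10.1 (9.45 to 10.8) in SG females and 3.41 (2.96 to 3.92) in YSG females. YSG males were 4.29-fold (3.51 to 5.28) and YSG females 2.96-fold (2.54 to 3.47) below SG of the same sex, and both YSG libraries lay below both SG libraries. Few barcodes carried it: 266, 68, 368 and 113 had a UMI, and in the SG male library 1 barcode held 52 of the 603 UMIs. Within gates it was 5.13-fold (3.67 to 7.32) and 2.45-fold (1.96 to 3.09) lower in cycling barcodes. In the early gate, on 40, 9, 21 and 20 UMIs, the female interval of the YSG over SG fold, 0.324 to 1.22, spanned 1. Npy1r, Npy2r and Npy5r, which encode receptors for neuropeptide Y, reached 0.566, 0.214 and 0.0547 CPM at most. Npy spans chr6:49822710-49829507 (plus strand).

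Sst, the somatostatin gene, was rare, and its few UMIs were in early postmitotic barcodes. There were 55 UMIs in SG males, 24 in YSG males, 108 in SG females and 166 in YSG females, or 0.752, 0.394, 1.24 and 2.85 CPM. The early gate held 65.5%, 66.7%, 75.9% and 74.7% of them, and the maturing gate held 0 in 3 libraries and 4 in YSG females. The early gate level was 9.32-fold (4.64 to 20.3), 8.47-fold (2.73 to 34.8), 17-fold (9.86 to 31.1) and 6.75-fold (4.36 to 10.8) that of the cycling gate. The cycling gate held only 11, 4, 16 and 25 Sst UMIs, so the size of these folds is unsure. Without doublet candidates they were 15.3, 15.0, 83.9 and 11.2, and with a pseudocount of 1 CPM they were 3.02, 1.90, 5.59 and 3.89. Library folds went opposite ways, at 0.524 (0.310 to 0.861) for males but 2.29 (1.79 to 2.94) for females, while the early gate of the 2 female libraries was even at 6.84 and 6.84 CPM. The female fold was under 2-fold with a pseudocount of 1 CPM (1.71), without barcodes of other classes (1.90) and as a mean over barcodes (1.79). The 10 richest barcodes held 36.7% to 53.7% of the Sst UMIs, so counting intervals are too narrow for it. Sst spans chr16:23889573-23890958 (minus strand).

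Sstr2, the somatostatin receptor gene, was by contrast found in every gate. Its cycling and early gate levels were similar except in YSG males, where they were 47.7 and 77.1 CPM. Over whole libraries Sstr2 was at 75.6 CPM in SG males, 55.1 in YSG males, 83.5 in SG females and 96.1 in YSG females, with folds of 0.729 (0.698 to 0.761) and 1.15 (1.11 to 1.19). Its early over cycling folds were 0.987, 1.62, 0.992 and 0.942. In the early gate the genotypes were nearly even, at a fold of 1.01 (0.922 to 1.10) for males and of 1.10 (1.02 to 1.19) for females, and cycling barcodes of males were at 77.5 CPM in SG and 47.7 in YSG. Sstr2 spans chr11:113619342-113626028 (plus strand) and overlaps Slc39a11, which is read from the minus strand. Sstr3 was the other somatostatin receptor gene above 1 CPM, at 1.59 to 3.46 CPM.

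Adcyap1, the PACAP gene, was lower in YSG in both sexes and in each gate. It was at 48.0 CPM (46.4 to 49.6) in SG males, 10.3 (9.51 to 11.1) in YSG males, 64.1 (62.4 to 65.8) in SG females and 31.8 (30.4 to 33.3) in YSG females. Both YSG libraries lay below both SG libraries, and YSG males were lowest. The male difference was 4.66-fold (4.28 to 5.08) and the female one 2.01-fold (1.91 to 2.12), at the edge of the 2-fold mark. Cycling barcodes were at 48.1 and 8.16 CPM in males and at 58.7 and 23.4 in females, which is 5.90-fold (5.15 to 6.78) and 2.51-fold (2.29 to 2.75) lower in YSG. Early gate barcodes were at 74.7, 14.3, 102 and 43.9 CPM, which is 5.22-fold (4.47 to 6.12) and 2.32-fold (2.12 to 2.54) lower. The early gate level was 1.55-fold to 1.88-fold that of the cycling gate in the 4 libraries, so Adcyap1 was present on both sides of cell cycle exit. Adcyap1 spans chr17:93199017-93206537 (plus strand).

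Adcyap1r1, the gene of the PACAP receptor PAC1, was higher in YSG where its ligand's gene was lower. Library levels were 3.72 CPM (3.29 to 4.19) in SG males, 9.72 (8.96 to 10.5) in YSG males, 3.95 (3.54 to 4.39) in SG females and 7.32 (6.64 to 8.05) in YSG females, with folds of 2.61 (2.26 to 3.03) and 1.85 (1.60 to 2.14). The differences were wider within the cycling and early gates. Cycling barcodes gave 3.74 (2.91 to 4.85) and 2.59 (2.03 to 3.31), and early gate barcodes gave 4.24 (2.72 to 6.89) and 2.70 (1.76 to 4.27), while the few UMIs of the maturing gate gave 2.09 (0.723 to 7.36) and 1.71 (0.628 to 5.38). The astroglia-marker barcodes held 40.4% and 42.3% of the Adcyap1r1 UMIs of the SG male and SG female libraries, against 10.0% and 5.62% in YSG, where these barcodes were fewer. Their level was 9.57, 13.0, 7.21 and 12.6 CPM. Without barcodes of other classes the library folds were 3.79 and 2.48, so the female value passed 2-fold there and not over the whole library. Adcyap1r1 spans chr6:55451978-55501451 (plus strand).

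**Figure D2:**
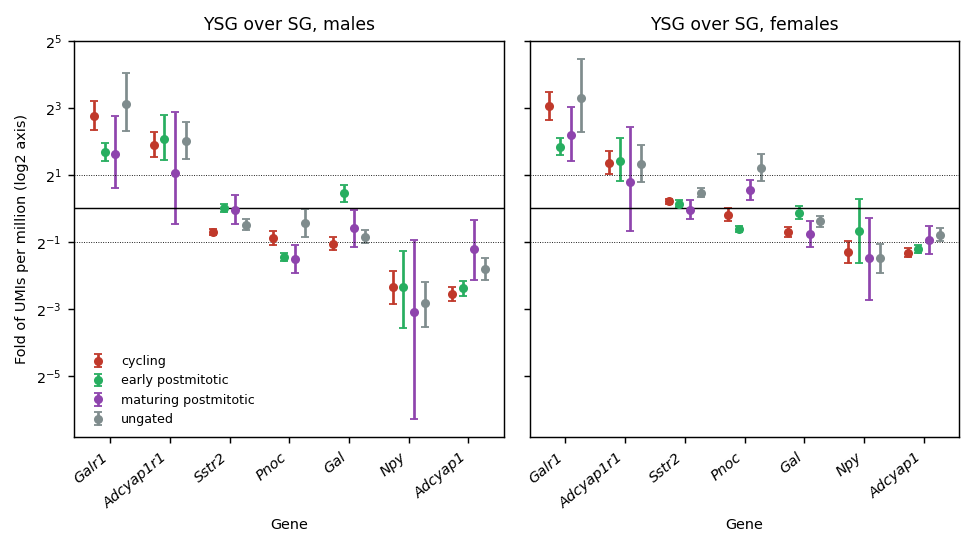
YSG over SG fold (log2 axis) of 7 genes in males and females within the cycling, early postmitotic, maturing postmitotic and ungated barcodes; bars are 95% conditional binomial intervals, the solid line is 1 and the dotted lines are 2-fold. Galr1 and Adcyap1r1 lie above 1 and Npy and Adcyap1 below 1 in each gate, whereas female Pnoc runs from 0.653 in the early gate to 2.33 in ungated barcodes.

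Since cyclic AMP is the common second messenger of these receptors, the RefSeq promoter windows (GRCm38.p6, 250 bases before to 50 after a start site) of the genes were searched on both strands for the cyclic AMP response element TGACGTCA and for its shorter core TGACG. Windows were at hand for 7 of the 9 genes, in 10 windows; Galr1 and Pnoc had none. The full element was found in Sst and Sstr2, the somatostatin ligand and receptor pair, while 1.79% of all 32851 promoter windows hold it. Adcyap1 and Gal had the core without the full element. The core lies within the full element, and 20.8% of all windows hold it. The stretches below, read 5′ to 3′ on the gene's strand, have the match in capitals and are shown because these 3 genes differ in where they were found in the tumours.
Sst, chr16:23890874-23890903, minus strand: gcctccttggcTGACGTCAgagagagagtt
Sstr2, chr11:113619258-113619287, plus strand: ccaagctgccgTGACGTCAcgggcgggggc
Adcyap1, chr17:93198914-93198942, plus strand: ggactaggatgcTGACGtcttttactgat
The matches begin 48, 58 and 91 bases before a RefSeq start site. The Sst stretch lies inside the GENCODE span of the gene, since that annotation places the outer end of Sst upstream of the RefSeq start used for the window. Sst, found mostly in the early gate, and Sstr2, found in all gates, both have the full element. The TEAD motif GGAATG, the motif of the factors that YAP1 binds, was in none of the 10 windows and in 14.7% of all windows, and the GLI motif GACCACCCA was in none of them and in 0.253% of all windows. The E-box CAGCTG was in none of them (16.3% of all windows), and CAGATG was in that of Oprl1 (17.2% of all windows). A match is a description of letters, and no binding was measured.

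The order of Pnoc, Galr1 and Sst along the early markers was then followed at a finer grain. Barcodes not in the cycling gate were split by their early marker UMIs per 10000 UMIs. From barcodes with 0 early marker UMIs to those with 16 or more per 10000, Pnoc went from 3.29 to 330 CPM in SG males, from 3.83 to 129 in YSG males, from 3.13 to 349 in SG females and from 10.9 to 219 in YSG females. Galr1 went from 0.143 to 19.3, from 6.38 to 82.5, from 0.570 to 23.7 and from 4.69 to 81.9 CPM in the same order. Both genes were thus highest where Cntn2, Robo3, Nhlh1 and Nhlh2 together were highest, with Pnoc lower and Galr1 higher in YSG at the top. Sst was at 3.63 to 23.0 CPM at the top and at most 0.285 CPM at 0. Gal and Npy had the opposite order in the 4 libraries. Gal went from 61.7 to 9.65 CPM in SG males, from 82.6 to 12 in SG females and from 67.6 to 20.6 in YSG females, and was flatter in YSG males, from 27.8 to 21.3. Npy went from 15.0 to 0.344, from 19.4 to 1.0, from 8.39 to 0.278 and from 1.70 to 0.453 CPM in those libraries. The top Npy values rest on 1, 3, 1 and 1 UMIs. In YSG males the Npy value at 0 rests on 8 UMIs, and its interval overlaps that at the top. Adcyap1 was higher at the top in SG males (29.1 to 80.3 CPM) and SG females (45.3 to 106) and YSG females (31.8 to 73.1), and in YSG males it stayed between 8.45 and 16.3 CPM. In cycling barcodes Galr1 and Pnoc followed the early markers as well: from 0 to the tier of 8 to 16 per 10000, Galr1 went from 0.717 to 34.4 CPM in YSG males and from 1.11 to 57.8 in YSG females, and Pnoc from 0.803 to 126 in SG males. The 20 to 37 cycling barcodes of a library with 16 or more per 10000 did not extend this in each case, with Galr1 at 67.0 CPM in YSG males and 22.1 in YSG females and Pnoc at 108 in SG males and 30.9 in YSG males. Depth per barcode was not matched between the tiers.

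**Figure D3:**
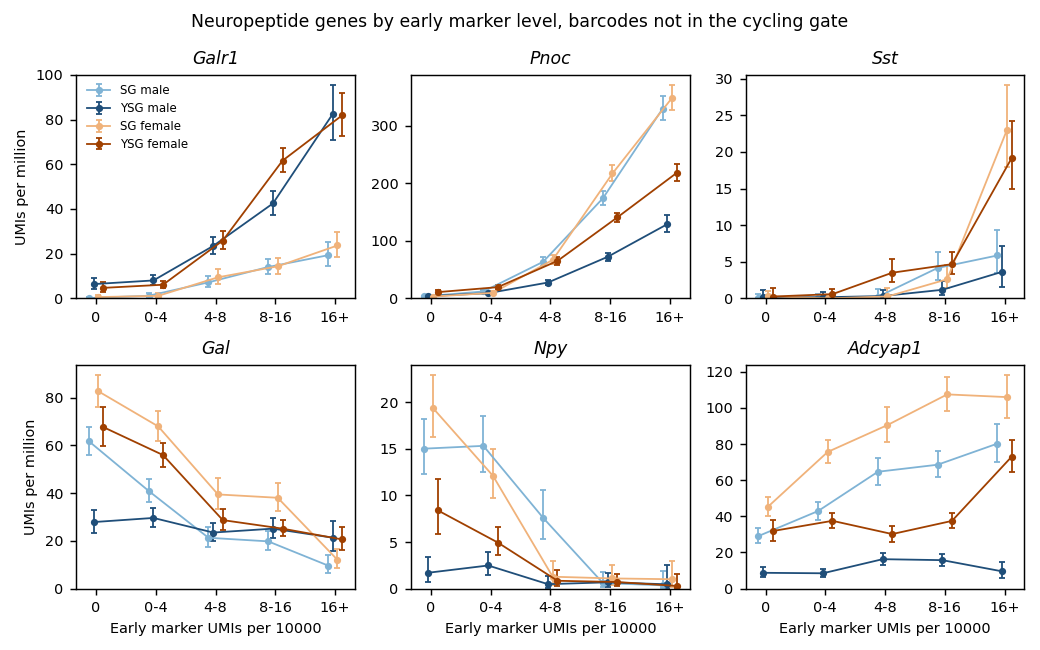
CPM of 6 genes (y axis, linear) against the early marker UMIs per 10000 of the barcode (x axis, 5 tiers) in barcodes outside the cycling gate; lines join the tiers of a library and bars are 95% Poisson intervals. Galr1, Pnoc and Sst are highest at 16 or more and Gal and Npy are highest in the lower tiers, with Galr1 near 82 CPM in both YSG libraries and at 19.3 and 23.7 in the SG libraries.

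Between gates of the same library, Galr1 and Pnoc were higher in early postmitotic than in cycling barcodes in each of the 4 libraries. The folds were 7.79 (5.65 to 10.9), 3.64 (3.16 to 4.21), 9.20 (6.78 to 12.6) and 3.96 (3.47 to 4.53) for Galr1, and 9.24 (8.43 to 10.1), 6.23 (5.44 to 7.16), 11 (10.1 to 12.1) and 8.20 (7.33 to 9.20) for Pnoc, in the library order used above. For Galr1 the SG folds were larger than the YSG folds, with intervals that did not overlap. Without doublet candidates the folds were larger, by over 1.5 times for Galr1 in SG females (17.2) and for Pnoc in YSG females (16.5). Of the 5 genes with enough UMIs in each library, these 2 were 2-fold or more higher in all 4, in a background of 2.17% of 9764 genes. The maturing gate was also 2-fold or more above the cycling gate for both genes in all 4 libraries, in a background of 0.292% of 9580 genes; with the gates set per 10000 UMIs, Galr1 in YSG males missed that mark at a fold of 1.68, and with astroglia-marker barcodes put in the gates at 1.96. Maturing over early gate folds of Galr1 and Pnoc were below 1 in each library, from 0.579 to 0.735 and from 0.354 to 0.791. That order rests on the markers: with gates on small marker sets the maturing level was above the early level in each library, at 1.36, 1.04, 1.89 and 1.34 for Galr1 and 2.01, 1.29, 2.11 and 1.13 for Pnoc. Npy was lower in the early than in the cycling gate, at 0.463, 0.465, 0.180 and 0.278; the YSG male value was 1.26 with gates on small marker sets, and the SG male value 0.230 without doublet candidates.

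Pnoc and Galr1 were next counted in the same barcodes. Both were found in 99 barcodes of SG males, 176 of YSG males, 112 of SG females and 234 of YSG females. A Galr1 UMI was in 11.1% (9.15 to 13.4) of barcodes with Pnoc and in 1.41% (1.15 to 1.70) of the others in SG males. The shares were 27.3% (23.9 to 30.9) and 7.83% (7.23 to 8.48) in YSG males, 13.9% (11.6 to 16.5) and 1.30% (1.04 to 1.60) in SG females, and 25.9% (23.1 to 28.9) and 10.8% (10.0 to 11.6) in YSG females. A Galr1 UMI was thus more frequent among barcodes with Pnoc than among the others in each library, although most barcodes with Pnoc had no Galr1. Barcodes with Galr1 but no Pnoc numbered 106 in SG males, 567 in YSG males, 89 in SG females and 679 in YSG females. In SG females most barcodes with Galr1 therefore had Pnoc too, and in both YSG libraries most did not. The ratio of the shares was larger in the SG libraries, where the share among the others was lower.

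Over all barcodes at full depth the ratio of the shares was 7.92 in SG males, 3.48 in YSG males, 10.7 in SG females and 2.40 in YSG females. Within the early gate, still at full depth, it was 2.43, 1.86, 3.34 and 1.36. At matched depth within that gate an excess was still seen in YSG males and SG females, and not clearly in SG males and YSG females. There, with each barcode thinned to 2000 UMIs, the shares were 2.83% (1.30 to 5.30) with Pnoc and 2.32% (1.63 to 3.20) without in SG males, and 9.14% (6.30 to 12.7) and 8.99% (7.84 to 10.2) in YSG females. They were 12.7% (8.38 to 18.2) and 6.98% (5.90 to 8.19) in YSG males and 6.02% (3.48 to 9.58) and 1.96% (1.28 to 2.86) in SG females. The intervals overlapped widely in the former pair and did not overlap in the latter pair of libraries, on 25 and 16 barcodes with both. The early gate held 1870, 2189, 1594 and 2586 barcodes of at least 2000 UMIs.

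**Figure D4:**
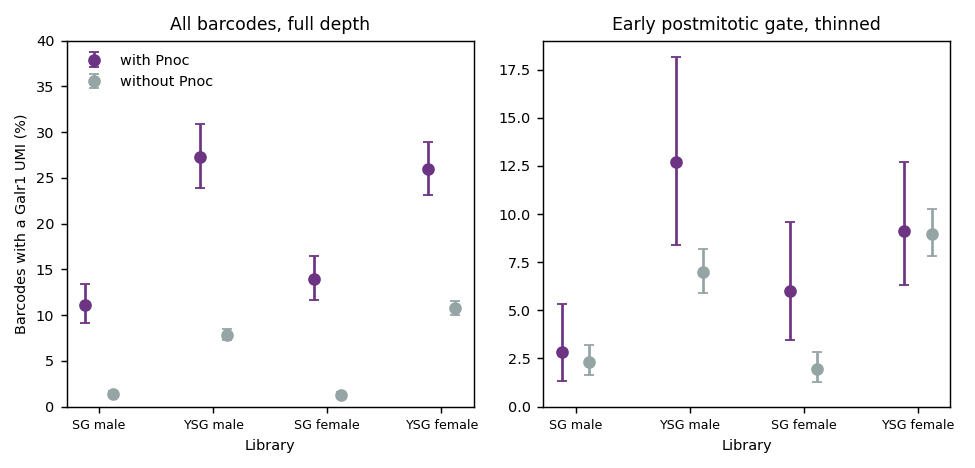
Percent of barcodes with a Galr1 UMI among those with and without a Pnoc UMI in each library, over all barcodes at full depth (left) and in the early postmitotic gate after thinning to 2000 UMIs (right); bars are 95% Clopper-Pearson intervals. The shares with Pnoc lie above those without in every library on the left, and on the right the SG male and YSG female pairs overlap.

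Pnoc and Sst also shared barcodes. Of the 39, 22, 47 and 71 barcodes with Sst, 24, 10, 34 and 48 also had Pnoc. In the thinned early gate, Sst was found in 1.89% (0.695 to 4.06), 0.508% (0.0129 to 2.80), 2.63% (1.06 to 5.35) and 3.24% (1.63 to 5.73) of barcodes with Pnoc and in 0.322% (0.105 to 0.750), 0.251% (0.0815 to 0.585), 0.452% (0.166 to 0.981) and 0.445% (0.214 to 0.817) of the rest. The intervals overlapped in both male libraries, and the YSG male value rests on 1 barcode with both. Ligands were also set beside their own receptors, over all barcodes. In the thinned set of all barcodes, Galr1 was in 0.645%, 2.25%, 1.14% and 3.86% of barcodes with Gal and in 0.824%, 3.52%, 0.759% and 4.96% of the rest, with overlapping intervals in each library. Intervals also overlapped in each library for Sst with Sstr2 and for Adcyap1 with Adcyap1r1 at that depth, apart from Sst with Sstr2 in YSG males, where 3 of 6 Sst barcodes had Sstr2.

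In the YSG female library the barcodes with Pnoc alone and those with Galr1 alone differed in other genes. The 668 barcodes with Pnoc alone had Robo3, an axon guidance receptor of the early marker set, at 71.7 CPM, Sst at 18.7 CPM and Adcyap1 at 88.7 CPM. The 679 with Galr1 alone had 3.44, 0.543 and 16.8 CPM. Cntn2, at 472 and 429 CPM, and Nhlh1, at 115 and 122 CPM, were nearly even between them. A Robo3 difference of the same direction was seen in SG males (47.0 and 12.2 CPM) and SG females (52.0 and 23.8), and in YSG males Robo3 was scarce in both (3.09 and 0.733). The other differences were not alike in all libraries: in SG males Sst was at 3.12 and 2.81 CPM, and in YSG males Adcyap1 was at 15.2 and 12.3 CPM. Mki67, a marker of cycling cells, was at 154 CPM with Pnoc alone and 293 with Galr1 alone in YSG females. It was at 307 and 418 CPM in SG males and 255 and 331 in YSG males, while SG females had the reverse order (376 and 302). These barcodes were sorted by the 2 genes, so the values describe them and were not tested.

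The genes whose pattern was most like that of Galr1 over the 12 sums of 3 gates in 4 libraries were Trim2, Gramd1b, Tmem56, Serpini1 and AC149090.1, each with a Pearson r of 0.98 on the log2(CPM + 1) scale among 10533 genes. Trim2, which encodes a ubiquitin ligase of neurons, went from 106 CPM in cycling to 162 in early barcodes of SG males and from 148 to 198 in YSG males. Serpini1 encodes neuroserpin, an inhibitor of proteases released by axons. Most like Pnoc were Trappc4, March2, Lsamp, Dnajb5 and Cops9, with r from 0.97 to 0.98; Lsamp encodes a cell adhesion protein of neurons. An r takes no account of the size of a change. From cycling to early barcodes of SG males, Cops9 went from 112 to 131 CPM and Trappc4 from 92.7 to 142. Pnoc went from 17.7 to 164 CPM there. The 12 sums share libraries and depth, so the r values are descriptions.

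Other genes of these pathways were read from 5 lists at 5 CPM or more in 1 library of a pair. None of the 9 galanin and opioid partner genes reached that level, and 1 of 12 partners of NPY, somatostatin and PACAP did. That 1 was Vipr1, which encodes a receptor that PACAP shares with VIP, at folds of 1.5 in males and 1.94 in females. Of 15 other neuropeptide genes 5 were measured in each sex, with 0 higher by 2-fold in males (2.07% of all genes) and 1 in females (3.7% of all genes), Nxph4 at 2.09 (1.22 in males). Nmb had 1.37 and 1.73, Nppc 1.04 and 1.75, and Vgf, whose product is cut into several peptides, had 0.711 and 0.680.

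Most genes of peptide processing and storage reached 5 CPM over whole libraries, and none was 2-fold lower in YSG. Of the 10, 8 were measured in males and 9 in females, with 1 and 2 of them 2-fold or more higher in YSG, where all genes had 2.07% and 3.7%. The granin genes Chgb and Chga, whose products load dense-core vesicles, had male folds of 1.85 and 2.01 and female folds of 2.17 and 1.81. Scg2, a further granin gene named after its value was seen, had 2.18 in females. At the low end Pam, the enzyme that amidates peptides such as galanin and neuropeptide Y, had 0.897 and 0.727, and Pcsk1n, an inhibitor of a precursor protease, had 1.07 and 0.864. The list's median log2 ratio, with a pseudocount of 1 CPM, was 0.21 in males and 0.50 in females, against -0.01 and 0.00 over all genes. The makeup of the libraries moved with these values: the early gate held 13.8% of UMIs in SG females and 31.1% in YSG females, and astroglia-marker barcodes 23.2% and 3.27%. Its part in them was not tested.

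Among 20 genes of G protein and cyclic AMP signalling, 18 were measured in each sex, with 3 higher and 2 lower by 2-fold in YSG in males and in females. Of all genes, 2.07% were higher and 2.72% lower in males, and 3.7% and 2.83% in females. Kcnj6 and Kcnj3, which encode potassium channel subunits opened by inhibitory receptors such as GALR1, were at the high end, with male folds of 4.06 and 1.86 and female folds of 5.20 and 2.94. At the low end were the adenylyl cyclase gene Adcy2 (0.245 and 0.0474) and the cyclic AMP phosphodiesterase gene Pde4b (0.362 and 0.276). Adcy1, at 2.28 in both sexes, and Adcy5, at 2.10 and 1.57, were also among the higher genes and were named after their values were seen. Adcy2 was at 6.97 and 6.15 CPM in SG and at 1.71 and 0.292 in YSG. Creb1, which encodes the factor that binds the cyclic AMP response element, was even, at 0.957 and 0.984. The list's medians, 0.03 and 0.04, were near those of all genes.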

How the data were processed

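The authors deposited raw counts of UMIs for each gene in each barcode, made with Cell Ranger 5.0.1 per the file headers, on mm10 per the submitters' processing notes. Strand use in counting is not given in the sources used here. Barcodes with at least 500 UMIs, 300 genes and at most 20% mitochondrial UMIs were kept. Doublets were not removed; Scrublet (scanpy 1.11.5) marked 0% by its own threshold, which is no working call, so an alternative left out the top 6% of scores. UMIs were summed per library and gate, with exact Poisson, conditional binomial and Clopper-Pearson 95% intervals (scipy 1.17.1); they cover counting error only. Folds use no pseudocount. A fold needs more than 3 UMIs in 1 library. Shares at matched depth come from each barcode thinned to 2000 UMIs. The named genes are the 9 genes, the 2 highest and 2 lowest of each list, and the 5 most similar to Galr1 and to Pnoc by r. Genes and lists were chosen with earlier results of these data known. Alternatives were a stricter barcode filter, doublet candidates left out, a pseudocount of 1 CPM, another denominator, other gates, no barcodes of other classes, and a mean over barcodes. Positions are from GENCODE M21. The fold and interval steps were tested on simulated library sums, and the gate step was not.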

Additional observations from a re-analysis of the deposited data

Results flagged for a closer look

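Pnoc, Sst and Sstr2 lay on opposite sides of 1 in males and females when the YSG library was set against the SG library. Pnoc had folds of 0.517 in males and 1.18 in females, Sst 0.524 and 2.29, and Sstr2 0.729 and 1.15. With 1 library per group, the difference between the sexes was not tested for any of them. In the early postmitotic gate Pnoc was below 1 in both sexes (0.365 and 0.653), Sst was at 0.387 and 1.0, and Sstr2 was at 1.01 and 1.10.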

How the results depend on the processing

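No paired analysis was possible because each group is 1 library and the labels give no replicate numbers. Of 108 alternative values of the library folds, 91 stayed inside the main counting interval, and each of the 54 for a gene past 2-fold kept its direction, 49 of them past 2-fold. Within gates all 276 such values kept their direction, and 208 of 210 did between gates; the 2 exceptions, on the log2 scale, were Oprl1 early over cycling in YSG males with gates per 10000 UMIs (-0.065) and Npy likewise with gates on small marker sets (0.34). With those sets Pnoc maturing over early in SG females turned as well (1.08). With a pseudocount of 1 CPM, Galr1 had log2 folds of 2.01 in males and 2.51 in females, and 1 gene in place of 2 was 2-fold lower in females, as Adcyap1 came to -0.99. Giving barcodes equal weight put female Galr1 at 2.57. Without barcodes of other classes male Pnoc was at -1.05 and 2 genes were 2-fold higher in females. Leaving out doublet candidates put female Pnoc at 0.31, and small marker sets put it at -0.51 in the early gate. The ratio of Galr1 shares with and without Pnoc, after thinning, was 4.49, 2.92 and 1.84 over all barcodes in SG males, YSG males and YSG females, and 1.22 and 1.02 in the early gate of SG males and YSG females; on small marker sets it was 1.51 and 1.14 in YSG males and YSG females. Placing astroglia-marker barcodes in the gates, the stricter filter and doublet removal within gates, and all alternatives of the maturing over early folds were chosen after seeing the data. The causes were not tested. Oprl1 and Sst are limited by depth.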
